A study of Drosophila melanogaster with 2 samples.

Results

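The 33 genes described here are the Hox and segmentation genes of Drosophila melanogaster, taken from 13945 protein-coding genes on the 6 chromosome arms of the assembly used. They were listed by name for their role, with earlier results of these data known, and no measured value entered the rule. All 33 were matched to the annotation by symbol, 2 of them (otd, annotated as oc, and h, annotated as hry) through a synonym. They comprise 8 Hox genes, 2 Hox cofactors, 2 maternal genes, 6 gap genes, 3 head gap genes, 9 pair-rule genes and 3 segment polarity genes.

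The data were a ChIP-seq (chromatin immunoprecipitation and sequencing) of maf-S in whole embryos aged 0 to 24 hours, of both sexes, from a fly line carrying a stable transgene for maf-S with GFP (eGFP) at its carboxyl end. Chromatin bound by the fusion protein was collected with an antibody against GFP. There was 1 group with no second condition, of 2 biological replicates (2 and 3 in the labels), and the matching control experiment was not analysed here. Each embryo collection mixed all cell types and nearly all of embryogenesis, and a peak list gives no expression by which a tissue could be checked. Strong binding in few cells and weak binding in many cells could not be told apart.

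maf-S is the small Maf protein of the fly, a basic leucine zipper factor without an activation domain of its own that binds DNA as a dimer with Cap'n'collar (Cnc) proteins. The best known partner is CncC, which drives genes of the response to oxidative stress. A shorter isoform, CncB, acts with maf-S in the mandibular segment of the head, where it restrains the Hox gene Dfd. The segmentation genes act as a cascade in the early embryo: maternal gradients set the domains of gap genes, gap proteins place the stripes of pair-rule genes, and pair-rule proteins place the segment polarity genes. The Hox genes then give each segment its identity. They lie in 2 clusters on arm 3R, the Antennapedia complex for the head and anterior thorax and the bithorax complex for the posterior thorax and abdomen.

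Peaks were read from 4 deposited lists: 1 for each replicate, 1 for the pooled replicates, and a thresholded list of 3205 peaks. The thresholded peaks were the 3205 strongest of the pooled list, and they are called peaks here unless another list is named. The strength of a peak is the signal given by the authors' peak caller, between 72.3 and 1703 in the thresholded list with a median of 109. Rank 1 is the strongest of the 30000 peaks in the pooled list or in the list of 1 replicate, and the summit is the position of the highest signal in a peak. The depth of the libraries is unknown from these files, and there is no contrast to test, so counts over the members are given beside the same share of all protein-coding genes.

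A peak lay within 1 kb of a start site for 1 of the 33 members (3.03%), against 19.4% of all protein-coding genes. The member was bcd, the maternal gradient gene whose protein patterns the head and thorax. A peak lay inside the gene span for 3 members (9.09%), against 9.16% of all protein-coding genes: the Hox gene Antp held 4, the Hox cofactor gene hth held 4 and the posterior determinant gene cad held 1. Either kind of peak was found at 4 members (12.1%), against 21.9% of all protein-coding genes, and 29 members had neither. None of the 6 gap genes, 3 head gap genes, 9 pair-rule genes or 3 segment polarity genes was among the 4.

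The peaks near or inside the members that the rest of the text returns to are shown by their sequence, as 201 bases centred on the summit. Coordinates are those of build dm6, counted from 1, on the plus strand, with bases from the RefSeq copy of the same release. Capitals mark the letters of a searched sequence on either strand. The bcd window is shown because it is the peak at a member's promoter, the slp1 and slp2 window because it is the strongest near any member, the h window because it is the closest to a pair-rule gene, and the others because they hold the sequences discussed with them. In the bcd window the capitals mark AGNNGGCG, a short form of the sequence bound by the insulator protein CTCF.
bcd, chr3R:6759561-6759761: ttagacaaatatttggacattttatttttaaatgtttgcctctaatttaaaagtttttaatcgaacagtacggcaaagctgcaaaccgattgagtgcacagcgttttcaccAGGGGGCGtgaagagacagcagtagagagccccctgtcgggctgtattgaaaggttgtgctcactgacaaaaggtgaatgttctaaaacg
In the window between slp1 and slp2 the capitals mark 2 copies of motif 1 (GGTCACAC), a core promoter element of housekeeping genes. The capitals also include a relaxed Cnc-Maf site (TGACNNNGC, overlapping the second copy on the other strand).
slp1 and slp2, chr2L:3832404-3832604: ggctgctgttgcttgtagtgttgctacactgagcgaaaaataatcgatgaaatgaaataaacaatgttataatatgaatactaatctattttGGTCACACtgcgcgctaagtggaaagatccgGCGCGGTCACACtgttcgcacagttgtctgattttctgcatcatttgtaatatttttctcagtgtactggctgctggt
In the h window the capitals mark a partial small Maf site (TGCTGA).
h, chr3L:8672653-8672853: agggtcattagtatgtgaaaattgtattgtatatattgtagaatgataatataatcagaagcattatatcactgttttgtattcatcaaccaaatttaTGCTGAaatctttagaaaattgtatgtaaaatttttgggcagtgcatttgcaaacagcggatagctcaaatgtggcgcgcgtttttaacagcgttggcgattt
In the Antp window the capitals mark the relaxed Cnc-Maf site in the middle and AGNNGGCG on both sides of it.
Antp, first intronic peak, chr3R:6912275-6912475: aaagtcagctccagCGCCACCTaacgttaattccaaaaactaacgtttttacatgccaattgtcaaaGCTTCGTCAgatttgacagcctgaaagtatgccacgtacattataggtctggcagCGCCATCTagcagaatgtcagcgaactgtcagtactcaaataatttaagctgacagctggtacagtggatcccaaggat
In the hth window the capitals mark motif 1.
hth, second intronic peak, chr3R:10564325-10564525: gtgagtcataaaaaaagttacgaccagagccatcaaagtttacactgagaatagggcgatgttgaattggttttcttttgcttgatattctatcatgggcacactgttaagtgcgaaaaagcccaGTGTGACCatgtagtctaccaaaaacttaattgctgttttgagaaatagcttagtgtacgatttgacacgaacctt
In the first bithorax window the capitals mark CAGGTAG, bound by Zelda, the activator of the early zygotic genome.
Bithorax complex, first peak, chr3R:16798776-16798976: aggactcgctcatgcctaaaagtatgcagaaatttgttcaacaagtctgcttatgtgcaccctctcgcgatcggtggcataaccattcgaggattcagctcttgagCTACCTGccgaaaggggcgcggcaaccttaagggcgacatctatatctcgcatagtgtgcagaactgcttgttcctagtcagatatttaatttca
In the second bithorax window the capitals mark AGNNGGCG and then the partial small Maf site.
Bithorax complex, second peak, chr3R:16869314-16869514: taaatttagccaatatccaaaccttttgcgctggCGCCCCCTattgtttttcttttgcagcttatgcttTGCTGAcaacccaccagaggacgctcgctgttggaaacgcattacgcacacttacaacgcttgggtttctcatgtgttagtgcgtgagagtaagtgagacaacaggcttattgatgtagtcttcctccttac

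Of the 2 maternal genes, bcd had its peak at chr3R:6759466-6759855, with the summit 195 bp upstream of the annotated start site in intergenic sequence. Its signal was 114, rank 1491 of the pooled list and just above the median of the thresholded list. The same peak ranked 3086 in replicate 2 (signal 33.8) and 1114 in replicate 3 (signal 77.9). It was therefore within the 3205 strongest peaks of each replicate alone.

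The other maternal gene, cad, which patterns the posterior, had its peak in an intron at chr2L:20780782-20781171 with a signal of 110 (rank 1599). It ranked 1819 in replicate 2 and 1702 in replicate 3. The summit was 10083 bp from the nearest start site of cad and 6679 bp from that of Pomp, a gene for a proteasome assembly factor. Near the cad start site itself the pooled list had a weaker peak, at rank 7230. The best within 1 kb ranked 26660 in replicate 2 and 6205 in replicate 3, far apart.

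Among the 8 Hox genes, Antp alone held peaks inside its span, and no Hox gene had one within 1 kb of a start site. The Antp gene, which specifies the second thoracic segment, spans 103 kb, and its 4 peaks all lay in introns. Their signals were 82.0, 105, 111 and 91.9 in order along the arm, and the nearest to an Antp start site was 3497 bp away. In replicate 2 they ranked 2886, 1922, 1224 and 3729, and in replicate 3 they ranked 2497, 1970, 1962 and 1763. Only the last fell outside the 3205 strongest peaks of a replicate, in replicate 2.

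The relaxed Cnc-Maf site was found in the window of the weakest of the 4 Antp peaks and in none of the other 3. The density over the span was 3.88 peaks per 100 kb, against 2.42 over arm 3R and 0 over the 77.8 kb span of Ubx. Antp was picked for its peaks, so this density is only a description. At its start sites Antp had no peak of any rank in the pooled list or in replicate 3. Replicate 2 had one there, of rank 24899.

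The other 7 Hox genes each had at least 1 weak peak of the pooled list within 1 kb of a start site. A peak of any rank in that list lay there for 63.3% of all protein-coding genes. In the Antennapedia complex, the best rank was 29873 for lab, the most anterior head Hox gene, and 29563 for pb, which acts in the mouthparts. Both are near the end of the list. Scr, which acts in the labial segment and first thoracic segment, had a best rank of 11859 in the pooled list, 4773 in replicate 2 and 25177 in replicate 3. Dfd, the head Hox gene named above for its link to CncB, had 20138 in the pooled list, 11594 in replicate 2 and 15746 in replicate 3. The nearest thresholded peak to a Dfd start site was the bcd peak, 32175 bp away. Inside the gene spans the best pooled ranks were higher up the list: 9849 for lab, 6446 for pb and 8107 for Scr. Dfd had none there. In replicates 2 and 3 these ranks were 6674 and 6020 for lab, 6469 and 9061 for pb, and 13787 and 7837 for Scr.

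In the bithorax complex the best ranks within 1 kb of a start site were 12388 for Ubx, 15419 for abd-A and 9744 for Abd-B. These are the genes for the third thoracic segment and the abdomen. Abd-B ranked 5169 in replicate 2 and had no peak there in replicate 3. The gene abd-A ranked 11464 in replicate 2 and likewise had none in replicate 3. Ubx was present in both, at 19796 in replicate 2 and 13921 in replicate 3.

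The 2 cofactor genes encode the proteins that Hox proteins bind DNA with. The hth gene spans 132 kb and held 4 intronic peaks, with signals of 78.5, 89.4, 74.0 and 96.6, all below the list's median. The nearest to a start site was 16479 bp away. In replicate 2 they ranked 5975, 4966, 3158 and 2406, and in replicate 3 they ranked 2048, 1707, 4407 and 2173. The last alone was within the 3205 strongest peaks of both replicates.

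Motif 1 was present in the second hth window and a Zelda sequence in the third. The density over the hth span, likewise picked for its peaks, was 3.03 peaks per 100 kb. The other cofactor gene, exd, had a best rank of 26027 near its start sites, with 28155 in replicate 2 and 10476 in replicate 3. Its nearest thresholded peak was 97457 bp away.

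Gene length went with peaks inside the span. The 2 members of at least 100 kb, Antp and hth, both held one, against 54.2% of the 83 protein-coding genes of that length. None of the 20 members under 10 kb held one, against 5.26% of protein-coding genes under 10 kb. The members were longer than usual, with a median span of 4205 bp against 2166 bp over all protein-coding genes.

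The pair-rule gene h, a repressor that sets the phase of the stripes, had the peak closest to a start site among the members without one inside 1 kb. The summit, at chr3L:8672558-8672947, lay 3006 bp upstream, with a signal of 83.8 (rank 2527). It ranked 1361 in replicate 2 and 4688 in replicate 3. The partial small Maf site in the h window printed above began 2 bp to the left of the summit. Within 1 kb of an h start site the pooled list had 3 weaker peaks, replicate 2 had 4 and replicate 3 had 3. The best of them ranked 4758 in the pooled list, 5486 in replicate 2 and 3204 in replicate 3. In replicate 3 the best is within the 3205 strongest by 1 rank.

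The strongest peak near any member lay between slp1 and slp2, a neighbouring pair of forkhead genes with pair-rule function. At chr2L:3832410-3832620 it had a signal of 331 and rank 157, and it ranked 203 in replicate 2 (signal 129) and 147 in replicate 3 (signal 199). Its summit was 4336 bp upstream of slp2 and 6829 bp from slp1, outside the 1 kb window of both. The 2 copies of motif 1 in the slp1 and slp2 window began 8 bp to the left and 27 bp to the right of the summit. Motif 1 was found in 3.59% of all 3205 summit windows. Near their own start sites slp1 had a best rank of 21071 and slp2 of 7519. For slp2 it was 9131 in replicate 2 and 8193 in replicate 3.

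The other 6 pair-rule genes had no thresholded peak within 9 kb of a start site. For opa, a zinc finger gene that times the later stripes, the best rank within 1 kb was 12411, with 10932 in replicate 2 and 5892 in replicate 3. The stripe gene ftz had 27123 in the pooled list and none in either replicate. For eve the only one was in replicate 2, at 27232, and likewise for odd at 25766. The genes run, encoding a Runt domain factor, and prd, encoding a paired domain factor, had none in any of the 3 lists.

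Of the 6 gap genes, 1 had any peak of the pooled list within 1 kb of a start site, 2 had one in replicate 2 and 3 in replicate 3, with none in both replicates. Of all protein-coding genes, 63.3% had one in the pooled list, 62.6% in replicate 2 and 63.4% in replicate 3. The gap gene with one in the pooled list was kni, which acts in the posterior, at rank 27238. It had 22352 in replicate 2 and none in replicate 3. The anterior gap gene hb had only a peak of rank 26541 in replicate 3. Kr of the central domain had only 2 within 1 kb, in replicate 3, the better of rank 24142. Farther inside the Kr span the best rank was 7181 in the pooled list, 7627 in replicate 2 and 8563 in replicate 3. The other gap genes had no pooled-list peak inside their spans. Within 1 kb, the terminal gene hkb had only one of 21202 in replicate 3. The terminal gene tll had only one of 19850, in replicate 2. The gap gene gt had none in any list, and its nearest thresholded peak, 99430 bp away, was the most distant of the 33.

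The 3 head gap genes each had at least 1 weak peak of the pooled list within 1 kb of a start site. Of all protein-coding genes, 63.3% had a peak of any rank there. For ems, which acts in the antennal and intercalary segments, the best rank was 11006 in the pooled list, 8460 in replicate 2 and 17095 in replicate 3. For otd the pooled rank was 25837, with none in replicate 2 and 15506 in replicate 3, and for btd it was 21050, with 27708 in replicate 2 and 29151 in replicate 3. The nearest thresholded peaks were 6078 bp from otd and 6463 bp from btd. The peak near btd lay 657 bp from the start site of nej, which encodes the coactivator CBP.

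Of the segment polarity genes, inv had ranks of 6802 in the pooled list, 6992 in replicate 2 and 8564 in replicate 3. Its neighbour en, the marker of posterior compartments, had 26744 in the pooled list, 12279 in replicate 2 and none in replicate 3. No peak of any list lay within 1 kb of a start site of gsb.

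Counting weak peaks, the members' share was near that of all genes. A peak of any rank in the pooled list lay within 1 kb of a start site for 22 of 33 members (66.7%), against 63.3% of all protein-coding genes. Among the genes with one, the median best rank was 13915 for the members and 6322 for all protein-coding genes. Counting genes with none as beyond the end of the list, the medians were 26027 for the members and 15791 for all protein-coding genes.

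The replicates gave the same counts of strong peaks to within 1 member. The 3205 strongest peaks of replicate 2 lay within 1 kb of a start site for 1 member, bcd, against 19.7% of all protein-coding genes. Those of replicate 3 did so for 2 members, bcd and h, against 18.9%. Peaks of any rank were found within 1 kb at 22 members (66.7%) in replicate 2, against 62.6% of all protein-coding genes. In replicate 3 they were found at 20 (60.6%), against 63.4%. Both replicates had one at 14 members, and the same share of all genes was not counted. Neither replicate had one at gt, run, prd, gsb or ftz.

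**Figure D1:**
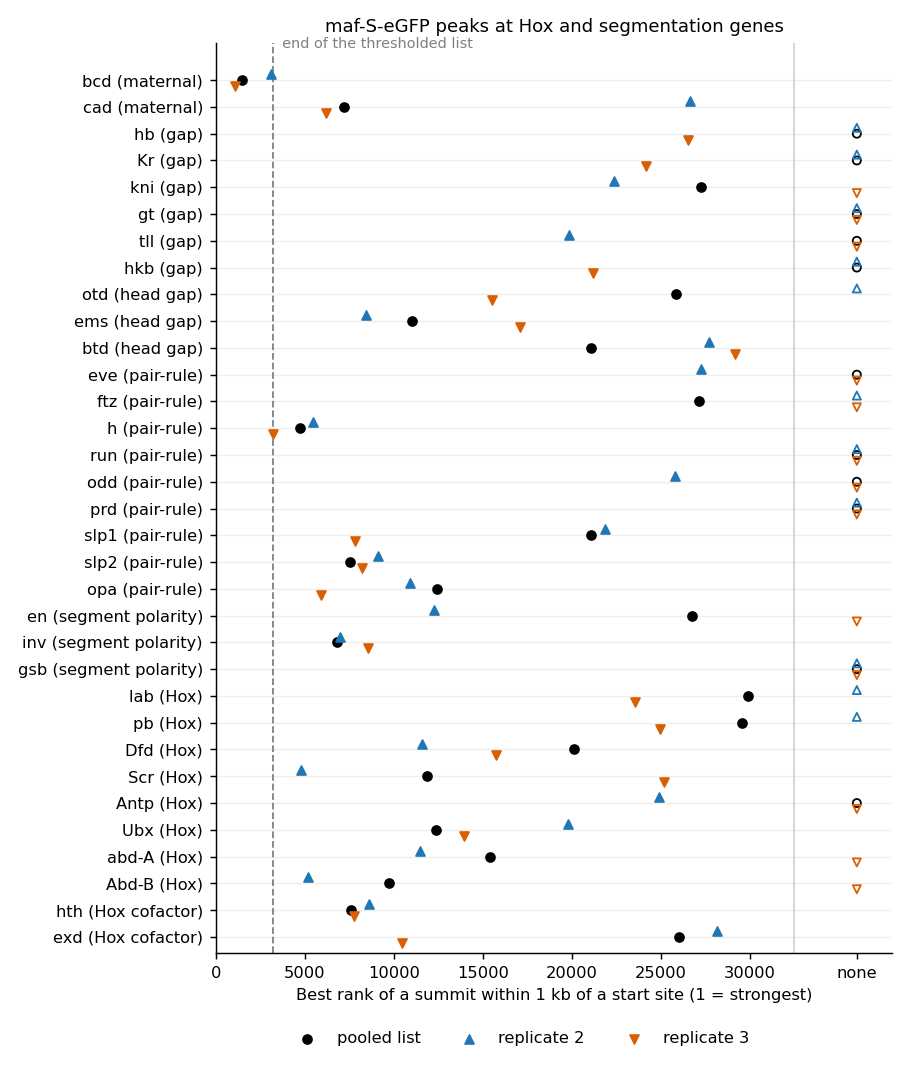
Best rank of a peak summit within 1 kb of a start site for each of the 33 genes, grouped by role, in the pooled list (circles), replicate 2 (upward triangles) and replicate 3 (downward triangles); open symbols in the right column mark genes with no peak in that list, and the dashed line is rank 3205, where the thresholded list ends. In the pooled list bcd alone (rank 1491) lies left of the line, and gt, run, prd and gsb have 3 open symbols.

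The members lay farther from peaks than protein-coding genes as a whole. The median distance from a start site to the nearest thresholded summit was 17440 bp for the members (quartiles 10083 and 32175 bp) and 9627 bp for all protein-coding genes (quartiles 2289 and 26502 bp). Inside the 1 kb limit was bcd at 195 bp, and the closest outside it were h at 3006 bp, Antp at 3497 bp and slp2 at 4336 bp. No member lay between 195 and 3006 bp. Within 5 kb there were 4 members (12.1%), against 36.1% of all protein-coding genes. Within 20 kb the shares were 60.6% of members and 68.4% of all protein-coding genes.

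The 33 genes shared 28 distinct nearest summits. For 12 members that summit lay within 1 kb of the start site of another gene, which for pb and Dfd was bcd. The same share of all protein-coding genes was not counted, so these counts are only a description. The peak nearest eve, 9788 bp away, was 52 bp from the start site of TER94, an ATPase of protein quality control. The peak nearest lab, 16574 bp away, was 9 bp from that of Taf1, a subunit of the general factor TFIID. The peak nearest prd was 143 bp from that of ThrRS, a transfer RNA synthetase, and the peak nearest hb was 120 bp from that of Unc50. For Abd-B the nearest, 14401 bp away, was 213 bp from CG18622.

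**Figure D2:**
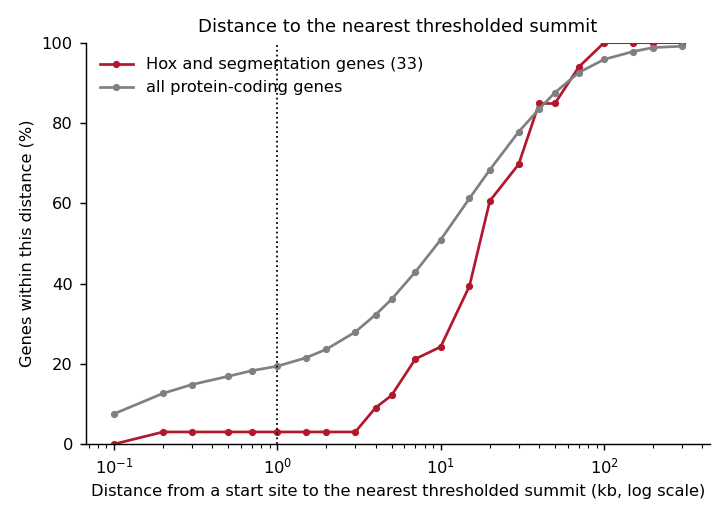
Share of genes (%) with a thresholded summit within a given distance of a start site (kb, log scale), for the 33 Hox and segmentation genes (red) and all protein-coding genes (grey); the dotted line marks 1 kb. The red curve stays at 3.03% up to 3 kb, where the grey curve has passed 19.4%, and the curves meet near 40 kb.

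In the 2 Hox complexes thresholded peaks were fewer per length than over the arm. The Antennapedia complex (chr3R:6661427-6999228, 338 kb) held 6 thresholded peaks, or 1.78 per 100 kb, and the bithorax complex (chr3R:16656623-16972236, 316 kb) held 2, or 0.634 per 100 kb. Arm 3R as a whole had 2.42 per 100 kb. Counting all peaks of the pooled list, the densities were 26.1 per 100 kb in the Antennapedia complex and 20.6 in the bithorax complex, against 22 over the arm. The complexes were also gene-poor, with 5.92 and 1.90 protein-coding genes per 100 kb in the Antennapedia and bithorax complexes, against 10.7 over the arm; what part gene density had in the counts was not tested. Of the 26 protein-coding genes in both, bcd alone had a peak within 1 kb of a start site, against 19.4% of all protein-coding genes. The 26 include the members already counted above.

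The 6 peaks of the Antennapedia complex were the bcd peak, the 4 in Antp introns and one at chr3R:6881569-6881958 between ftz and Antp (signal 74.9, rank 3032). The last lay outside the spans of ftz and Antp but in an intron by the annotation. Its nearest start site was that of the non-coding gene lncRNA:CR44931, 3514 bp away. It was 17440 bp from the start site of ftz, the nearest coding start site. It ranked 2740 in replicate 2 and 3780 in replicate 3. The first bithorax peak, at chr3R:16798814-16798991, was the strongest of both complexes, with a signal of 198 and rank 536. It ranked 436 in replicate 2 and 617 in replicate 3.

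That peak was intergenic, 29229 bp from the nearest start site of abd-A and 64450 bp from that of Ubx. The Zelda sequence in the first bithorax window began 6 bp to the right of its summit. The second bithorax peak, at chr3R:16869219-16869608 (signal 91.2, rank 2178), lay within the non-coding gene lncRNA:iab8, whose transcript runs through the regulatory region between abd-A and Abd-B. It ranked 4011 in replicate 2 and 1539 in replicate 3. In addition, 3 summits of the complexes lay just below the lowest thresholded signal of 72.3, at 71.7, 72.0 and 72.0, one of them in a Ubx intron (chr3R:16704229-16704618). They were singled out after their values were seen. Just outside the left end of the Ubx span lay a thresholded peak with a signal of 80.5, and beyond the Abd-B end lay the CG18622 peak given above, with a signal of 295.

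**Figure D3:**
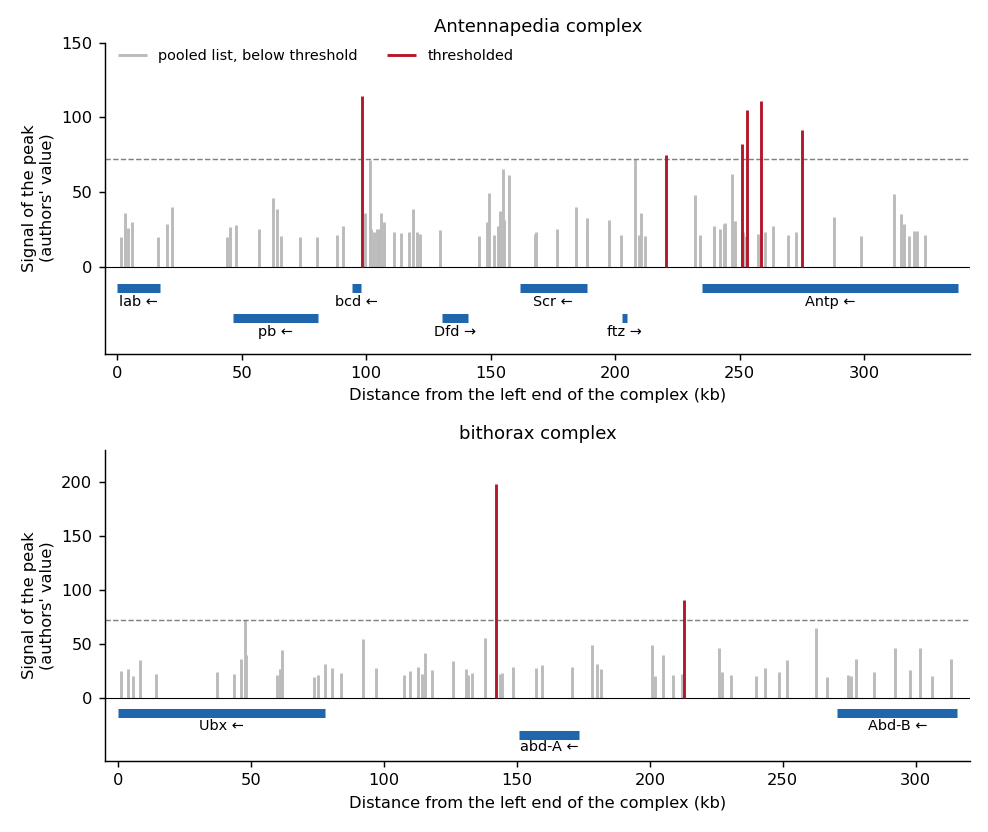
Signal of each peak summit (authors' value, linear axis) against its distance from the left end of the Antennapedia complex (top) and the bithorax complex (bottom) in kb, with thresholded peaks in red, other peaks of the pooled list in grey and the dashed line at 72.3; blue bars are the spans of the Hox genes, bcd and ftz, and arrows give their strand. The 6 thresholded peaks of the Antennapedia complex (bcd, the one between ftz and Antp, and 4 inside Antp) and the 2 of the bithorax complex stand above the line; peaks outside the ends of the complexes are not drawn.

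Across the complexes and the 4 members with a peak, 15 peaks were examined in all: those of bcd, Antp, cad and hth, those near h and between slp1 and slp2, and the other 3 in the complexes. All 15 had a matching peak in both replicates, with summits within 150 bp. All ranked among the 3205 strongest in at least 1 replicate, and 8 did so in both. The thresholded list was itself drawn from the pool of these replicates, so such matches are only a description. The same shares of all 3205 peaks were not counted. The 15 peaks lay in introns (11) or between genes (4), none in an exon, and 5 were above the median signal of the thresholded list. The relaxed Cnc-Maf site was in 2 of the 15 windows (Antp and slp1 and slp2), against 5.74% of all 3205 summit windows. The partial small Maf site was in 2 (h and the second bithorax peak), against 9.36% of all windows. Motif 1 and the Zelda sequence were in 2 each, against 3.59% and 0.842% of all windows. These shares were not tested.

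The sequence AGNNGGCG was in 4 of the 15 windows, those of bcd, Antp, the peak between ftz and Antp, and the second bithorax peak. It was in 8.55% of all windows. It was searched only after the windows had been read, so its count there is a description.

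The promoters of the members were searched for a panel of short sequences and set beside the promoters at which maf-S peaks lay, with no test of the shares. The window ran from 250 bp before to 50 bp after the 5′ end of each gene and was searched on both strands. GAGAGAG, bound by the GAGA factor of promoters with paused polymerase, was found in 10 of 33 members (30.3%): Dfd, Scr, Ubx, abd-A, hb, kni, tll, en, gsb and btd. It was in 5.21% of the 2110 promoters with a thresholded summit within 500 bp and in 5.87% of all protein-coding promoters. CAGGTAG, bound by Zelda, was found in 5 members (15.2%): gt, ftz, h, odd and slp1. It was in 0.711% of the promoters with a summit and in 1.64% of all.

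The 250 bases before the 5′ end of 4 of these members are printed on the gene's own strand, with GAGAGAG in capitals for Ubx and abd-A and CAGGTAG for h and odd. None had a thresholded peak there. The exd promoter is printed beside them with TATCGATA, the DRE (DNA replication-related element) of housekeeping promoters, in capitals.
Ubx, chr3R:16734427-16734676, minus strand: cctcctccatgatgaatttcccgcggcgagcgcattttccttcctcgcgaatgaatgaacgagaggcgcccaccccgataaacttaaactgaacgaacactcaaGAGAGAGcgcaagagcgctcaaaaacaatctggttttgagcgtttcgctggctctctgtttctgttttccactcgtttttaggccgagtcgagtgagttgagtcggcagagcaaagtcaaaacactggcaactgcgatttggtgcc
abd-A, chr3R:16830050-16830299, minus strand: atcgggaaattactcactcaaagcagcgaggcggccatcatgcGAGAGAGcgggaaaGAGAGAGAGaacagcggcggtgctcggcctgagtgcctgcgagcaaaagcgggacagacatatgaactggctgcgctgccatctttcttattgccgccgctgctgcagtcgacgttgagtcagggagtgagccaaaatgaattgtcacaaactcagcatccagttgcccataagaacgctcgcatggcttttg
h, chr3L:8675509-8675758, plus strand: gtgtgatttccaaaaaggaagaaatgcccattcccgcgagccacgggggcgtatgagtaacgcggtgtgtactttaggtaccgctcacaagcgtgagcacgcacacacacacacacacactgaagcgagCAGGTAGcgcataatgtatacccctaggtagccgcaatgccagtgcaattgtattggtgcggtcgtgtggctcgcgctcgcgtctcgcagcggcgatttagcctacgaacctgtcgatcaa
odd, chr2L:3606757-3607006, minus strand: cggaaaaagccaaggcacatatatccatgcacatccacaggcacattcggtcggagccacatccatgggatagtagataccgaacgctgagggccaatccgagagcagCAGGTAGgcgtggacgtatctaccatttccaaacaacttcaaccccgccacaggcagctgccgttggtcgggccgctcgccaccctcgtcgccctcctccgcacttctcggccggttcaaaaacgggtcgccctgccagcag
exd, chrX:15992218-15992467, plus strand: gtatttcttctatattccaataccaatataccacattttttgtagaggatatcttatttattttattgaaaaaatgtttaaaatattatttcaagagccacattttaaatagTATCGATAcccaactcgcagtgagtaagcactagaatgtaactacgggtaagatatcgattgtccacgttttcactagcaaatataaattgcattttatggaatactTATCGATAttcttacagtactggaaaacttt

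The DRE was found in 1 of 33 members (3.03%), exd, against 16.3% of the promoters with a thresholded summit and 9.36% of all. Motif 1 was in none of the 33, against 11.8% of the promoters with a summit and 7.70% of all. The relaxed Cnc-Maf site was in 6 members (18.2%), Antp, Ubx, cad, Kr, eve and inv, none of them with a thresholded summit within 1 kb. It was in 8.72% of the promoters with a summit and 8.63% of all. The partial small Maf site was in 3 members (9.09%), against 14.7% of the promoters with a summit and 14.2% of all.

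The remaining sequences of the panel were searched without regard to position. TATAAA was in 6 members (18.2%), against 45.3% of the promoters with a summit and 45.8% of all. TCAGT was in 20 members (60.6%), against 43.6% and 51.5% in the same order. TAATTA, the core bound by homeodomains, was in 2 members (6.06%), against 22.3% and 20.4%. TAATCC, bound by the protein of bcd, was in 1 member (3.03%), against 7.39% and 8.74%. The median GC content of the promoter windows was 53.3% for the members, 37.0% for the promoters with a summit and 38.0% for all protein-coding genes, and its part in these shares was not tested.

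**Figure D4:**
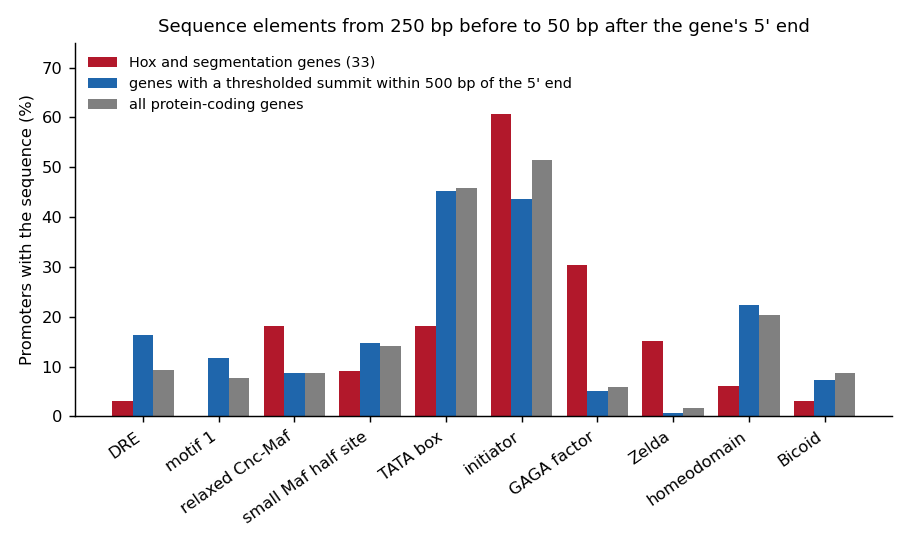
Share of promoters (%, from 250 bp before to 50 bp after the 5′ end) with each sequence of the panel, on either strand and at any position, in the 33 Hox and segmentation genes (red), in the 2110 genes with a thresholded summit within 500 bp (blue) and in all protein-coding genes (grey). GAGA factor and Zelda sequences are higher in red (30.3% and 15.2%), and DRE and motif 1 are higher in blue (16.3% and 11.8%).

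Core promoter elements at their usual place were also counted. TATAAA starting 45 to 20 bp before the 5′ end was found in 3 members (9.09%), gt, eve and slp1, against 2.56% of the promoters with a summit and 8.81% of all. TCAGT, an initiator sequence, starting within 4 bp before to 2 bp after it, was found in 7 members (21.2%), kni, gt, hkb, prd, opa, gsb and btd, against 4.74% and 8.53% in the same order. Either was found in 9 members (27.3%), against 7.20% and 16.6%. The 60 bases of 4 of them, from 50 bp before the 5′ end, are shown with these elements in capitals on the gene's own strand. The gt promoter carries both, slp1 the TATA box, and hkb and opa the initiator.
gt, chrX:2428958-2429017, minus strand: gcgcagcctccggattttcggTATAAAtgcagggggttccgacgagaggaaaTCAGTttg
slp1, chr2L:3825625-3825684, plus strand: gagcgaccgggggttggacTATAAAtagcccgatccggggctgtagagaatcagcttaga
hkb, chr3R:4346637-4346696, minus strand: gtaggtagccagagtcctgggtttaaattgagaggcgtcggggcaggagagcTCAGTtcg
opa, chr3R:4852763-4852822, plus strand: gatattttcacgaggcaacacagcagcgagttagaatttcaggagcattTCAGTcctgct

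The arrangement of the members in the genome was compared in the same way. A head-to-head neighbour, a gene on the other strand whose 5′ end lies within 1 kb upstream, was found for 1 of 33 members (3.03%), against 33.3% of all protein-coding genes. The member was exd, with no peak there. Of the protein-coding genes with such a neighbour 33.1% had a thresholded summit within 1 kb of a start site, and of those without one 12.6% did, against 1 of the 32 members without one (3.12%). A single annotated start site was found for 17 members (51.5%) and for 73.5% of all protein-coding genes.

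Other patterning genes outside the 33 were counted on 3 further lists, whose shares differed. Among 22 paralogues and further gap, head and homeotic-complex genes, 2 (9.09%) had a thresholded summit within 1 kb of a start site. They were the zinc finger gene bowl and the Maf partner cnc. The share of all protein-coding genes given above was 19.4%. Among 12 further segment polarity genes there were 3 (25%), smo, nkd and arr. Among 10 maternal and terminal genes there were 4 (40%), nos, tsl, cic and gro. Over the 3 lists together there were 9 of 44 (20.5%). The strongest was at gro, the corepressor used by several pair-rule proteins, with a signal of 400 and rank 111. At cnc, which is itself needed for head segments, the signal was 132 and the rank 1142. None of 5 non-coding genes of the Hox complexes had one at a start site.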

How the data were processed

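Peak lists on build dm6 were used, 1 per biological replicate, 1 for the pooled replicates and 1 thresholded. Per the deposited file notes, peaks were called from the alignments with a control experiment; the aligner, caller and threshold are not given in the sources used here, and the dm3 lists were not used. The deposited signal of each peak (column 7) ranked peaks within a list and was not compared between lists. The deposited −log10 q-value was the same (3.81) for every thresholded peak and was not used for ranking. The replicate and pooled lists each end at 30000 peaks, so deeper peaks are not seen. Chromatin was sheared to 200 to 800 bp, per the labels.

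Start sites and spans came from Ensembl release 115 for genes on 6 arms, and sequence from the RefSeq copy of the dm6 assembly. A summit within 1 kb of any annotated start site was counted at that gene. Every member is named. Other genes were named from 4 further lists where bound, or as the gene nearest to a summit described. Members and lists were chosen with earlier results of these data known. The length classes, the split by head-to-head neighbour, the positioned promoter elements and the AGNNGGCG search were added after values had been seen. No test was made: there is 1 group of 2 replicates. Counting was checked on simulated data. Tools were Python 3.11.15, numpy 2.4.6, pandas 2.3.3 and matplotlib 3.10.9. Depth is unknown, and no interval is given.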

Additional observations from a re-analysis of the deposited data

How the results depend on the processing

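The count of 1 member with a peak within 1 kb of a start site was the same within 500 bp, within 2 kb, by any base of the peak, by the gene's 5′ end alone, and in the stronger part of the list. The shares of all protein-coding genes, in the order just given, were 16.9%, 23.6%, 20.3%, 17.8% and 11.1%. The count of members was 4 within 5 kb (Antp, bcd, h and slp2), against 36.1% of all protein-coding genes. On 1 replicate at a time it ran between 1 and 2, h being added when replicate 2 was left out. The shares of all protein-coding genes were then 19.7% without replicate 3 and 18.9% without replicate 2. Members with a peak inside the span numbered 3, and 8 when spans were extended by 5 kb (Ubx, bcd, h, slp2 and otd added), against 41.8% of all protein-coding genes. Members with a peak inside the span itself were 2 in the stronger part of the list, hth being lost, against 5.26% of all protein-coding genes. They were 3 without replicate 3, against 9.37%, and 4 without replicate 2, h being added, against 9.25%. The median best rank of the members, 26027, was 15838 within 5 kb, against 5531 for all protein-coding genes, and 24899 to 24972 on 1 replicate at a time. The density in both Hox complexes, 1.22 per 100 kb, was 1.38 without replicate 3 and 1.22 without replicate 2. Over arm 3R it was 2.45 and 2.4 in the same order. No paired analysis was possible because the series has 1 group. The cause of these changes was not tested. Depth and the control limit what can be said of genes with no peak: a binding site below the 30000 listed peaks, or in few cells, would be missed.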
